A study of Mus musculus with 26 samples.

Results

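The nuclear genes of oxidative phosphorylation are described here: the subunits of the respiratory chain and ATP synthase that are encoded in the nucleus, together with the Ndufaf assembly factors of complex I. They were taken by symbol, as every listed transcript whose gene name begins with Nduf, Cox4 to Cox8, Uqcr or Atp5, or is one of Sdha to Sdhd. Of the 10104 transcripts listed for either cell type, 82 were members, 79 of the 8530 listed for progenitors and all 82 of the 9751 listed for oligodendrocytes. Atp5k, Cox6b2 and Ndufaf5 were listed for oligodendrocytes alone. By role, 34 members encoded complex I subunits, 4 complex II, 8 complex III, 13 complex IV (with Ndufa4, counted here as a complex IV subunit, and Cox7a2l, a factor of respiratory supercomplexes), 17 ATP synthase, and 6 the assembly factors Ndufaf1, Ndufaf3, Ndufaf4, Ndufaf5, Ndufaf7 and Ndufaf8.

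Oxidative phosphorylation couples the passage of electrons through complexes I to IV of the inner mitochondrial membrane to the pumping of protons, and ATP synthase uses the proton gradient to make ATP. Most subunits are encoded in the nucleus and imported, and a core set is encoded in mitochondrial DNA. Assembly factors such as the NDUFAF proteins help to build complex I but are not part of the finished enzyme. In the oligodendrocyte lineage, mitochondria meet the energy and lipid precursor demand of cells that go on to make myelin.

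The decay of metabolically labelled RNA was followed in oligodendrocyte progenitor cells (OPCs, 3 replicates) and in oligodendrocytes (OLs, 2 replicates), both untreated apart from their media. OPCs were made from epiblast stem cells of 129S/SvEv male mouse embryos and grown with bFGF and PDGFA. OLs were differentiated from a pair of the OPC replicates, whose numbers are not stated, with thyroid hormone (T3), noggin, IGF-1, cyclic AMP and NT3, and were labelled after 40 h of differentiation, so the cultures were young and can hold cells at several stages. All cells took up 5-ethynyluridine (5-EU) for 24 h, uridine then replaced it, and biotin-coupled labelled RNA was sequenced at 0, 1, 2, 4 and 6 h. The lineage genes Olig1, Olig2 and Sox10 were listed in both cell types. Of 8 OL markers, 2 were listed in OPCs (summed 0 h level 37.6 to 55.1 FPKM) and 7 in OLs (2747 and 6006 FPKM), whereas the summed level of 5 OPC markers was higher in OLs (547 and 586 FPKM) than in OPCs (293 to 406). Of 5 astrocyte markers, 2 were listed in OPCs (63.1 to 72.8 FPKM) and 4 in OLs (126 and 294 FPKM). Of 5 neuronal markers, 2 were listed in OPCs (81.8 to 183 FPKM) and 3 in OLs (188 and 203 FPKM). None of 4 microglial or 4 pluripotency markers was listed in either. In such bulk cultures, fewer cells of a type and less RNA per cell cannot be told apart.

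Levels are FPKM, fragments per length of transcript and per size of library, which the authors scaled to labelled spike-in RNA (0 h values, by their number of digits, appear to be unscaled). Half-lives, in hours, are those the authors fitted in each replicate, and longer fits stand at a ceiling of 6 h, so a value of 6 h is a lower limit. The median level of all listed transcripts at 1 h was 67.9%, 95.3% and 75.4% of 0 h in OPC replicates 1, 2 and 3, and for OL replicates 1 and 2 it was 64.0% and 95.5%. The number of reads behind a value is unknown. At 6 h, 15.7% to 21.6% of transcripts were listed at 0 in the OPC replicates, against 4.08% and 0.790% in the OL replicates.

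The subunit mRNAs were almost all too stable for a half-life to be measured in either cell type, whereas most Ndufaf mRNAs had a measurable one in OPCs. Of 74 subunit transcripts with a half-life in all 5 replicates, 72 (97.3%) stood at the 6 h ceiling in every one, and none of the 5 assembly factor transcripts did. Over all 8112 transcripts with 5 half-lives the share was 16.1%. In OLs alone, 3 of the 6 Ndufaf transcripts (50.0%) stood at the ceiling in each replicate, against 39.7% and 36.1% of all transcripts with a half-life in OL replicates 1 and 2. All 34 complex I subunits, all 8 of complex III and all 12 of complex IV stood at the ceiling throughout. Since so many values are tied there, the members with the longest half-lives cannot be ranked.

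**Figure D1:**
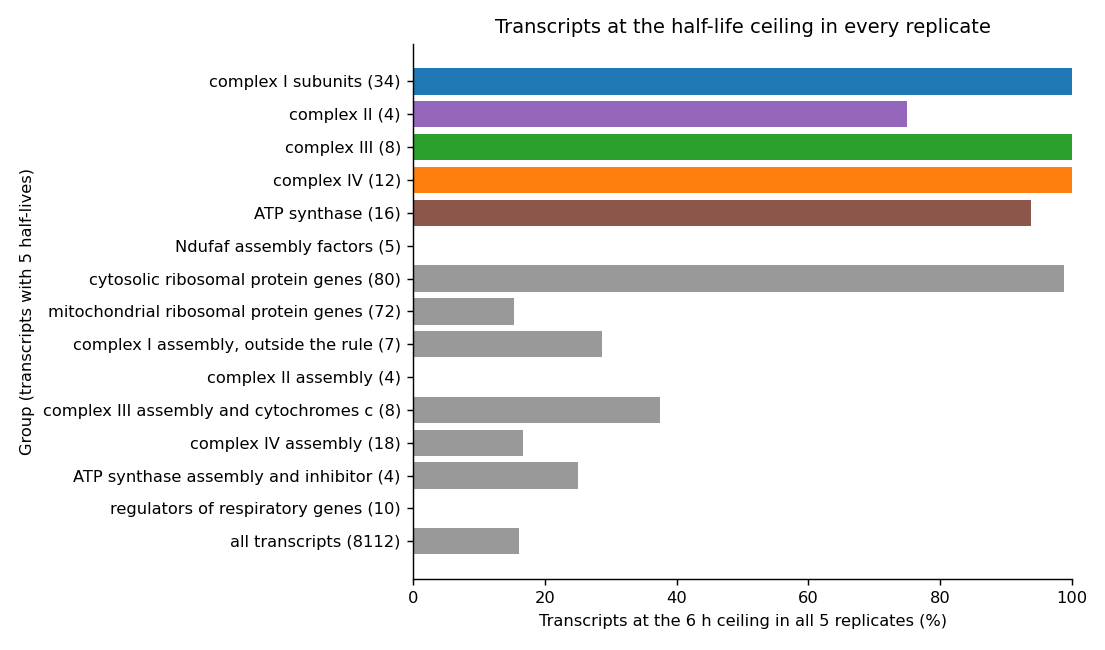
Share of transcripts (x axis, %) whose half-life stood at the 6 h ceiling in all 5 replicates, by group (y axis, with the number of transcripts that had 5 half-lives). The bars of complexes I, III and IV reach 100%, that of the Ndufaf assembly factors is at 0, and that of all transcripts is at 16.1%.

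The exceptions among the subunits were Sdhd and Atp5g1. Sdhd (chr9:50596357-50603812, minus strand, GRCm38), a membrane anchor of complex II or succinate dehydrogenase, had half-lives of 4.25, 4.75 and 4.54 h in the 3 OPC replicates and 6.00 h in both OL replicates. Atp5g1, which encodes subunit c of the ATP synthase rotor, had 4.47 h in OPC replicate 1 and 6.00 h in the other 4. The OL and OPC values of Sdhd did not overlap, and those of Atp5g1 did. For these and the half-lives below, the share of all transcripts without overlap was not counted.

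Among the assembly factors, the 3 with the steepest decline in OPCs lie in GRCm38 at chr4:24898083-24905001 (Ndufaf4, plus strand), chr2:119655451-119662798 (Ndufaf1, minus strand) and chr17:78937136-78947499 (Ndufaf7, plus strand). Ndufaf4 was short-lived in both cell types, at 1.97, 1.96 and 1.90 h in OPCs and 1.45 and 2.48 h in OLs. Ndufaf1, a factor for an intermediate of the membrane arm, had 1.54, 1.96 and 1.96 h in OPCs and 1.70 and 5.41 h in OLs. Ndufaf7, an arginine methyltransferase that acts on a complex I subunit, had 2.61, 1.96 and 2.29 h in OPCs and 4.91 and 6.00 h in OLs. The cell types did not overlap for Ndufaf7, and they did for Ndufaf1 and Ndufaf4. The value of 1.96 h was listed to 3 decimals alike for 2174 of 8491 transcripts (25.6%) in OPC replicate 2, with Ndufaf1, Ndufaf4 and Ndufaf7 among them, and for 632 (7.44%) in OPC replicate 3, with Ndufaf1. Transcripts at this shared value cannot be ranked against one another. Ndufaf3 varied most within OPCs, at 1.2, 2.71 and 3.27 h, and had 6.00 and 4.36 h in OLs. A refit gave 0.950 h for it in OPC replicate 3, where its level was 8.88% of 0 h at 2 h and 80.5% at 6 h, so the value in that replicate is uncertain. Ndufaf8 was the longest-lived factor in OPCs, at 4.76, 5.68 and 6.00 h, and stood at 6.00 h in both OL replicates, as did Ndufaf5, which was listed in OLs alone.

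The median half-life of the 5 shared assembly factors was shorter than that of the 34 complex I subunits in 5 of 5 replicates. The subunit median was 6.00 h in each. The assembly factor median was 1.97, 1.96 and 2.29 h in OPC replicates 1, 2 and 3, which left a difference of 3.93 ± 0.185 h (SD, n = 3). For OL replicates 1 and 2 it was 4.91 and 5.41 h, which left 0.840 ± 0.352 h (SD, n = 2). The difference in OLs was 2.79 h after the libraries were rescaled to 1 mean decay curve. Its size in OLs thus depends on the scale, and the size was not compared between the cell types. Because the subunits stood at the ceiling, these differences are lower limits, and no test was made over genes. The order of transcripts within a replicate, which a scale shared by its library moves less, placed the sets in the same order: on a percentile scale where 100 is the slowest decay, the subunit median lay between 91.7 and 96.1 in the 5 replicates, and the assembly factor median between 30.7 and 43.4 in OPCs and at 52.6 and 57.4 in OLs. These percentiles come from refitted rates, and with the listed half-life of Ndufaf3 the OPC replicate 3 median would be 41.4 in place of 30.7.

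The levels through the chase show this directly. At 6 h the median subunit stood at 108%, 176% and 133% of its 0 h level in OPC replicates 1, 2 and 3, and at 131% and 110% for OL replicates 1 and 2. The median assembly factor stood at 10.6%, 0% and 4.23% in OPCs and at 44.0% and 68.1% in OLs, where the median is over 6 factors with Ndufaf5, and at 39.3% and 46.4% over the 5 listed in both cell types. The median of all listed transcripts was 14.4%, 11% and 17.7% in OPCs and 31.5% and 36.6% in OLs. The median of the assembly factors lay below it in all 3 OPC replicates and above it in both OL replicates, and the median of the subunits above it in all 5. Single genes departed from this: Ndufaf8 stood at 70.5%, 48.1% and 109% in OPCs, and Ndufaf4 at 7.34% and 25.8% in OLs. The level of 42 of 79 members was above its own 0 h level at 6 h in all 3 OPC replicates, against 4.41% of all transcripts, and that of 37 of 82 in both OL replicates, against 5.18%. Levels over 100% are relative to the spike-in scale, and what part that scale or residual labelling had in them was not tested.

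**Figure D2:**
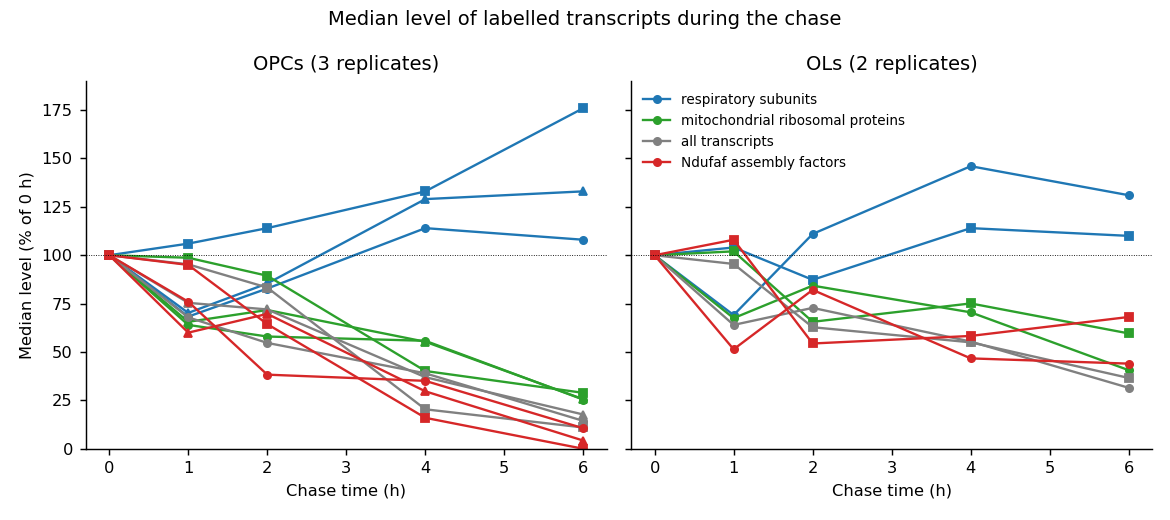
Median level, as % of 0 h (y axis), against chase time in h (x axis) in OPCs (left) and OLs (right), with 1 line per replicate (circles, squares and triangles for replicates 1, 2 and 3) for respiratory subunits, mitochondrial ribosomal protein genes, all transcripts and Ndufaf assembly factors. The subunit lines end between 108% and 176% at 6 h, and the assembly factor lines end at or under 10.6% in OPCs (5 factors) and at 44.0% and 68.1% in OLs (6 factors).

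Whether each transcript changed over the chase was tested with limma as a slope of log2(FPKM + 1) per h, with Benjamini-Hochberg adjustment over all transcripts of the cell type and a threshold of 0.05. In OPCs, 46 of 79 members (58.2%) passed with a slope above 0, where 4.31% of all 8530 transcripts did. Another 5 (6.33%) fell, where 81.7% did. Whether or not they passed, 65 of 79 members and 884 of 8530 transcripts had a slope above 0. From here on, counts of slopes that rose, fell or were positive cover only those past the threshold. The member median was 0.10 log2 units per h and the median of all transcripts was -0.38. Those passing above 0 were 17 of 34 complex I subunits, 2 of 4 of complex II and 4 of 8 of complex III. They were also 11 of 12 of complex IV, 12 of 16 of ATP synthase and 0 of 5 assembly factors. The members that fell were Ndufaf1, Ndufaf3, Ndufaf4, Ndufaf7 and Sdhd, of which Ndufaf1 and Ndufaf7 alone still passed once every library was set to the 0 h median of its replicate. The count of positive slopes dropped to 16 without OPC replicate 2, to 25 without OPC replicate 3 and to 13 without the 6 h libraries, with 4, 5 and 4 members falling, and the share of all transcripts above 0 dropped with it, from 4.31% to 1.79%, 1.97% and 1.77%.

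Cox6c had the steepest slope. This gene, a small structural subunit of complex IV, measured 294 FPKM at 0 h and 512 at 6 h in OPC replicate 1, 195 and 574 in replicate 2, and 235 and 567 in replicate 3. Its slope was 0.23 ± 0.04 log2 units per h (SE, limma adjusted p = 6.81e-05), and its level at 6 h was above that at 0 h in every OPC replicate. The next slopes by p were those of Ndufa4 (0.18), Cox4i1 (0.19), Cox8a (0.17), Cox7b (0.16), Cox6a1 (0.18) and Cox6b1 (0.15). Atp5b, the catalytic beta subunit of ATP synthase, followed at 0.15, with Ndufc1 at 0.16, Atp5j at 0.14, Cox5b at 0.15 and Atp5j2 at 0.14. All of these stood at the 6 h ceiling in all 5 replicates, so their half-lives give no order among them.

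The falling members were few and low in level, apart from Sdhd. Ndufaf1 measured 9.29, 9.99 and 6.43 FPKM at 0 h in OPC replicates 1, 2 and 3 and was listed at 0 in all 3 at 6 h, with a slope of -0.59 ± 0.06 (SE, limma adjusted p = 1.96e-07). Ndufaf7 measured 5.96, 6.29 and 5.91 FPKM at 0 h and was also listed at 0 in all 3 at 6 h (-0.47 ± 0.05, limma adjusted p = 1.46e-07). Ndufaf4 fell from 6.19, 14.4 and 11 FPKM to 1.84, 0.316 and 0.466 FPKM (-0.47 ± 0.06, limma adjusted p = 2.13e-06). These 3 factors declined in every OPC replicate. Ndufaf3 went from 16.5, 9.02 and 12.6 FPKM to 1.75, 0 and 10.1 FPKM (-0.29 ± 0.10, limma adjusted p = 0.0114), and the last of these replicates stood well above the other two. Ndufaf8 did not pass the test (-0.07 ± 0.04, limma adjusted p = 0.128). Setting every library to its 0 h median moved the median slope of all transcripts from -0.38 to -0.02 and of members from 0.10 to 0.62. Then 74 members rose and 2 fell, where 34.0% and 25.4% of all transcripts did. Those that fell were Ndufaf1 at -0.59 (limma adjusted p = 2.68e-05) and Ndufaf7 at -0.42 (limma adjusted p = 0.00125). The slope of Ndufaf4 was -0.15 and no longer passed (limma adjusted p = 0.0922), that of Ndufaf3 was 0.02 (limma adjusted p = 0.906), and that of Sdhd turned to 0.26 (limma adjusted p = 0.000233), lower than the member median.

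Within complex II, Sdhd stood apart from the other 3 subunits. Sdhd measured 164, 93.9 and 112 FPKM at 0 h and 61.6, 31.4 and 28.9 FPKM at 6 h in OPC replicates 1, 2 and 3, or 37.6%, 33.4% and 25.9% of 0 h (-0.25 ± 0.04, limma adjusted p = 3.47e-05). Sdha, the flavoprotein that oxidises succinate, stood at 109%, 139% and 141% at 6 h in the same libraries (0.10 ± 0.04, limma adjusted p = 0.0234). Sdhb, the iron-sulfur subunit, stood at 76.9%, 150% and 86.6% (0.03 ± 0.04, limma adjusted p = 0.456), and Sdhc, the other membrane anchor, at 99.6%, 157% and 152% (0.10 ± 0.04, limma adjusted p = 0.0208). In every OPC replicate the 6 h level of Sdhd, relative to 0 h, lay below that of the other 3. In OLs, Sdhd stood at 53.6% and 110% at 6 h, and its slope did not pass the test (-0.05 ± 0.05, limma adjusted p = 0.387).

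**Figure D3:**
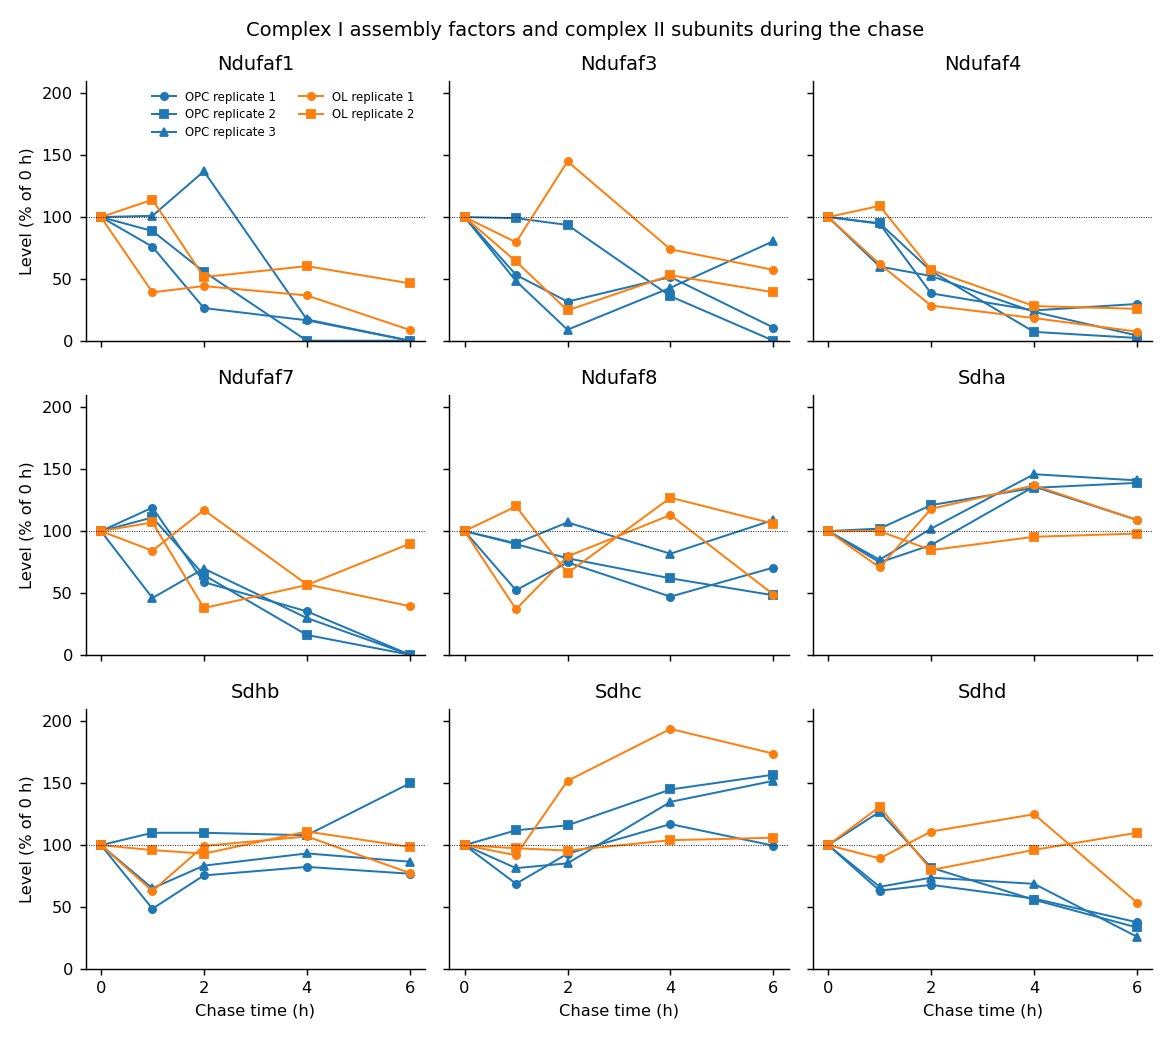
Level as % of 0 h (y axis) against chase time in h (x axis) for 5 complex I assembly factors and the 4 complex II subunits, in OPC (blue) and OL (orange) replicates, with 1 line per replicate. Ndufaf1 and Ndufaf7 reach 0 at 6 h in all 3 OPC replicates and in neither OL replicate, and Sdhd ends at 25.9% to 37.6% in OPCs where Sdha, Sdhb and Sdhc end at 76.9% or more.

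One further OPC slope rests on a single value. Ndufv3, an accessory subunit of the complex I flavoprotein arm (named here after its values were seen), was listed at 0 in OPC replicate 1 at 6 h, after 82.1 FPKM at 4 h, and measured 71.9 and 79.8 FPKM at 6 h in replicates 2 and 3. Its slope of -0.25 ± 0.15 did not pass the test (limma adjusted p = 0.128), and its half-life stood at the ceiling in all 5 replicates.

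In OLs fewer slopes passed in either direction. Of 82 members, 11 (13.4%) passed with a slope above 0, where 1.50% of all 9751 transcripts did. Another 2 (2.44%) fell, where 68.4% did. Whether or not they passed, 69 of 82 members and 1217 of 9751 transcripts had a slope above 0. The member median was 0.08 log2 units per h and the median of all transcripts was -0.20. By complex, 5 of complex IV passed above 0: Cox7b (0.16), Cox6c (0.15), Cox6b1 (0.15), Cox6a1 (0.16) and Cox4i1 (0.14). From complex I, 3 did: Ndufa1 (0.17), Ndufs5 (0.13) and Ndufc1 (0.12). From ATP synthase, 3 did: Atp5j (0.11), Atp5h (0.12) and Atp5mpl (0.12). All 11 also passed above 0 in OPCs. The count was 2 without OL replicate 1, 8 without OL replicate 2 and 2 without the 6 h libraries, with 2, 3 and 2 members falling, and of all transcripts 0.123%, 1.28% and 0.513% were then above 0. After every library was set to its 0 h median, which moved the median slope of all transcripts from -0.20 to 0.01, 77 members rose and 1, Ndufaf4, fell, where 30.4% and 20.1% of all transcripts did.

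The members that fell in OLs were Ndufaf4 and Ndufaf1. Ndufaf4 measured 7.93 and 8.73 FPKM at 0 h and 0.583 and 2.25 FPKM at 6 h in the OL replicates (-0.36 ± 0.05, limma adjusted p = 1.64e-05). Ndufaf1 measured 12 and 12.7 FPKM at 0 h and 1.04 and 5.90 FPKM at 6 h (-0.27 ± 0.06, limma adjusted p = 0.000831). Both declined in each OL replicate, and Ndufaf1 had a slope of -0.06 (limma adjusted p = 0.371) with libraries set to the 0 h median. Ndufaf3 (-0.13 ± 0.06, limma adjusted p = 0.0730), Ndufaf7 (-0.11 ± 0.06, limma adjusted p = 0.0997) and Ndufaf5 (-0.03 ± 0.06, limma adjusted p = 0.649) did not pass the test, nor did Ndufaf8, at a slope of 0.00.

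**Figure D4:**
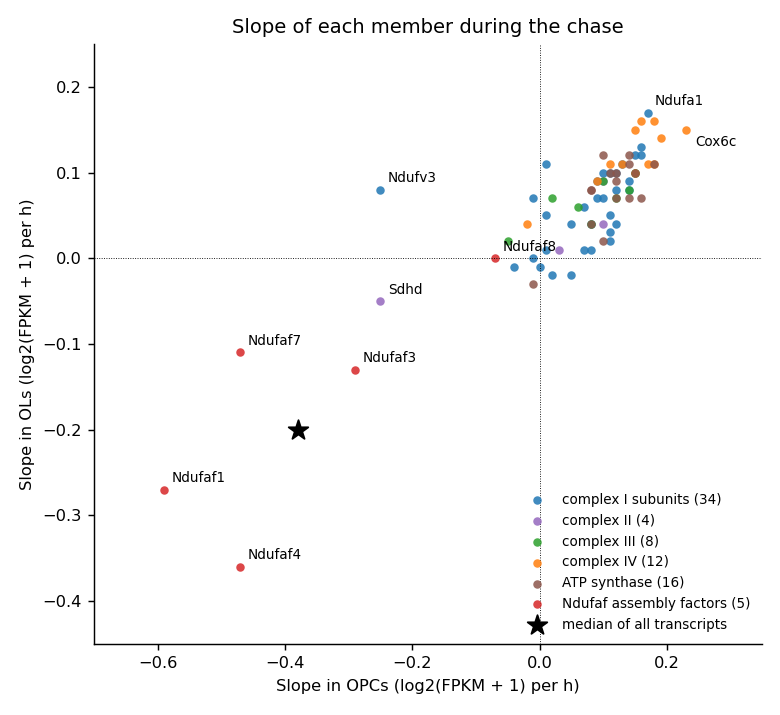
Slope of log2(FPKM + 1) per h in OPCs (x axis) against that in OLs (y axis) for the 79 members listed in both, coloured by role, with the median of all transcripts as a star. Most subunits lie above 0 on both axes, Ndufaf1, Ndufaf3, Ndufaf4 and Ndufaf7 lie below 0 on both, and Sdhd lies at -0.25 in OPCs and -0.05 in OLs, although with libraries set to the 0 h median the OPC slopes of Ndufaf3 and Sdhd were 0.02 and 0.26.

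Whether mRNA stability differed between the cell types could be asked of few members, since most stood at the ceiling in both. With limma on log2 half-life, 0 of 79 members passed the threshold, where 3.39% of all 8112 transcripts were longer in OLs and 0.148% shorter, and 2 members had an unadjusted p under 0.05. These were Ndufaf7, at 1.26 ± 0.18 log2 units longer in OLs (SE, limma adjusted p = 0.0620), and Sdhd, at 0.41 ± 0.06 (limma adjusted p = 0.0618), which turned to -0.49 when each replicate was centred on its median half-life. In the order of decay rates within replicates, 0 members and 0 of all transcripts passed (limma, 0 members and 1447 of all transcripts had an unadjusted p under 0.05). A slope of FPKM against time that differs by cell type, tested with limma over all libraries, was less negative in OLs for 3 of 79 members (3.80%), where 32.2% of all transcripts passed in that direction, and more negative for 0, where 0.382% did. The 3 were Ndufaf7 (a difference of 0.36 ± 0.08 log2 units per h, limma adjusted p = 0.00174), Ndufaf1 (0.33 ± 0.09, limma adjusted p = 0.00929) and Sdhd (0.20 ± 0.07, limma adjusted p = 0.0280). The median difference was -0.02 over members and 0.14 over all transcripts. This slope test took time points as observations, so its p-values do not measure the spread of slopes between replicates. Ndufaf1 and Ndufaf7 were listed at 0 at 6 h in all OPC replicates. In single OPC replicates 15.7% to 21.6% of all transcripts were, and the share at 0 in all of them was not counted. What part these zeros had in the slope differences was not tested.

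Before the chase, labelled mRNA of the members made up 3.87%, 2.84% and 3.39% of the summed FPKM of all listed transcripts in OPC replicates 1, 2 and 3, and 3.28% and 3.31% for the OL replicates. The OL values lay within the range of the OPC values. The highest member in both cell types was Atp5b, at 1218 ± 224 FPKM in OPCs (SD, n = 3) and 643 ± 10.6 in OLs (SD, n = 2). In OPCs Atp5g3 (726 ± 144), Atp5a1 (706 ± 135, the alpha subunit of ATP synthase), Cox8a (619 ± 157) and Cox4i1 (497 ± 145) came next, and each differed from its neighbour in this order by less than the larger SD. In OLs the next were Cox8a (524 ± 33.7), Atp5g3 (512 ± 78.4), Cox4i1 (479 ± 42.8) and Atp5a1 (453 ± 3.64), again with neighbours closer than the larger SD. The lowest in OPCs were the 5 assembly factors, from Ndufaf7 at 6.05 ± 0.208 FPKM to Ndufaf8 at 17.1 ± 8.61, and the median complex I subunit was at 88.1, 59.5 and 77.6 FPKM in the same replicates. In OLs the 5 lowest were Ndufaf7 (6.60 ± 0.122), Cox6b2 (7.62 ± 5.95), Ndufaf4 (8.33 ± 0.564), Ndufaf3 (11.1 ± 2.67) and Ndufaf8 (12.2 ± 4.00). Ndufaf8 differed from Ndufab1 (12.2 ± 1.08), Ndufaf1 (12.4 ± 0.510) and Ndufaf5 (12.4 ± 1.28) by less than its SD.

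Against OPCs, 6 of 79 members were lower in OLs at 0 h (7.59%, limma on log2(FPKM + 1), adjusted over 8177 transcripts, of which 15.8% were lower), and 0 were higher, where 13.8% were. The largest difference was in Atp5g2, a subunit c gene of ATP synthase, which measured 527, 367 and 470 FPKM in OPC replicates 1, 2 and 3, and 164 and 179 FPKM for OL replicates 1 and 2 (-1.39 ± 0.24 log2 units, SE, limma adjusted p = 0.00446). Atp5b measured 1436, 988 and 1229 FPKM in OPCs and 651 and 636 in OLs (-0.90 ± 0.24, limma adjusted p = 0.0241). Both genes were lower in each OL replicate than in any OPC replicate. Cox7a2l measured 168, 141 and 150 FPKM in OPCs and 88.5 and 86.5 in OLs (-0.80 ± 0.21, limma adjusted p = 0.0248), and Ndufab1, the mitochondrial acyl carrier protein that is also a complex I subunit, 28.1, 17.9 and 22.7 against 13.0 and 11.5 (-0.83 ± 0.25, limma adjusted p = 0.0382). Sdha measured 150, 114 and 132 FPKM against 75.1 and 82.3 (-0.73 ± 0.22, limma adjusted p = 0.0401), and Ndufc2 288, 276 and 258 against 187 and 157 (-0.67 ± 0.21, limma adjusted p = 0.0461). These groups did not overlap either.

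The count of 6 was 3 without OPC replicate 1, 1 without OPC replicate 3, 1 without either OL replicate, and 1 with replicate number as a block, and the member that stayed in each of these, Atp5g2, had adjusted p-values of 0.00124 to 0.0498 over all alternatives. In all, both OL replicates lay below all OPC replicates for 13 of 79 members, against 31.4% of all transcripts, and above them for 5, against 28.0%. The median difference was -0.15 log2 units over members and -0.01 over all transcripts.

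**Figure D5:**
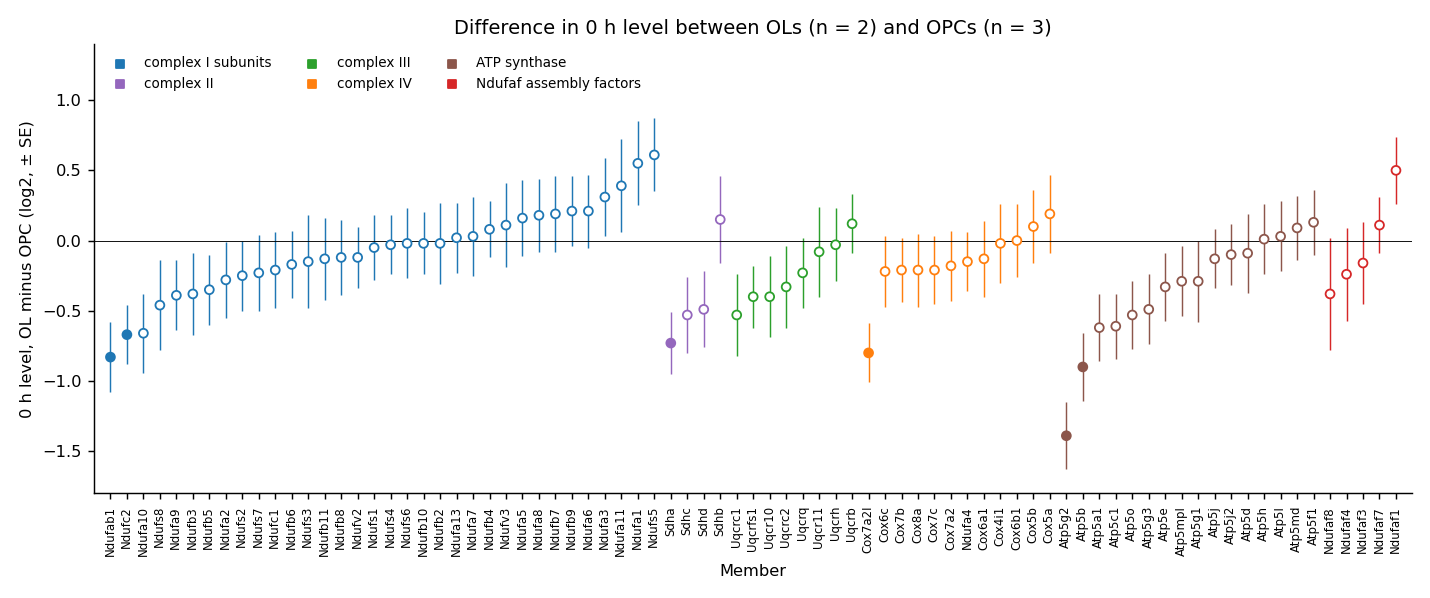
Difference in 0 h level between OLs and OPCs (y axis, log2 units, with SE) for each of 79 members (x axis), grouped by role and ordered by the difference. Filled points are the 6 members past an adjusted p of 0.05, all below 0, of which Atp5g2 at -1.39 is the lowest.

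Paralogues differed in level and in their change between the cell types. Atp5g1, Atp5g2 and Atp5g3 encode subunit c with different import signals. Atp5g3 made up 61.0%, 60.3% and 59.8% of their summed FPKM in OPC replicates 1, 2 and 3, and 71.9% and 74.1% for OL replicates 1 and 2. The share of Atp5g2 was 37.0%, 38.1% and 38.6% in OPCs and 25.9% and 23.4% in OLs, and that of Atp5g1 was between 1.59% and 2.48% throughout. The shares of Atp5g2 and Atp5g3 did not overlap between the cell types. All these shares rest on transcript models of unlike length, 4715 nucleotides for Atp5g1, 441 for Atp5g2 and 714 for Atp5g3. Of Cox7a2, a complex IV subunit, and the related Cox7a2l together, Cox7a2l held 40.9%, 48.3% and 42.9% in OPCs and 33.9% and 33.8% in OLs. Cox4i1, Cox6a1, Cox7b, Cox8a and Ndufa4 were the sole listed members of their paralogue sets, and Cox6b2 was listed beside Cox6b1 in OLs alone, at 3.41 and 11.8 FPKM with no half-life.

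The members differed in length and in level by role, and both moved with stability. The median transcript of the 76 subunits was 752 nucleotides (nt) long and that of the 6 assembly factors 1469 nt, against 3098 nt over all transcripts (GENCODE M21 models, GRCm38). Among transcripts that were no members, the OPC slope passed above 0 for 21.9% up to 1000 nt and 2.80% above it. The share was 33.1% in those up to 1000 nt with at least 50 FPKM at 0 h. Of members in that last class, 80.5% passed above 0. Of transcripts that were no members, 48.2% of those with at least 50 FPKM and 5.57% of those under 30 FPKM stood at the ceiling in all 5 replicates. All 5 assembly factors were under 30 FPKM, as were 3 subunits, of which 2 stood at the ceiling in all 5 replicates. Of 26 subunits longer than 1000 nt, 24 did. Across members, Spearman's rho of slope was -0.487 with length and 0.476 with 0 h level in OPCs (79 genes). In OLs the values were -0.585 and 0.382 (82 genes). Over the subunits alone they were -0.442 and 0.364 in OPCs and -0.541 and 0.239 in OLs. Over all transcripts they were weaker, at -0.103 and 0.0982 in OPCs and -0.245 and 0.129 in OLs. All are descriptions of genes that share libraries. The limits of 1000 nt, 30 FPKM and 50 FPKM were chosen after the values were seen, and the part of length and level in the division between subunits and assembly factors was not tested.

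The 3′ untranslated regions (3′ UTRs) of the subunits were short, at a median of 159 nt, against 416 nt in the assembly factors and 1113 nt in all transcripts, and seldom held the elements best known to mark short-lived mRNA. The AU-rich core TATTTAT, searched on the transcript's strand with overlaps counted once per transcript, was in 5 of 75 subunit 3′ UTRs (6.67%) and in 30.2% of those of transcripts that were no members. Among 3′ UTRs of up to 500 nt it was in 3.17% and 7.90%, and among longer ones in 3 of 12 (25.0%) and 37.9%. TGTANATA, the Pumilio element, was in 3 of 75 (4.00%) against 27.0%, or 3.17% against 8.25% up to 500 nt. Of the 6 assembly factors, none held TATTTAT and 1, Ndufaf4, held TGTANATA. The sites are shown for 6 members, since they let a reader set the element beside the stability: the first 4 stood at the 6 h ceiling in all 5 replicates, Atp5g1 did in 4, and Ndufaf4 was the shortest-lived member in both OL replicates. Each is given 5′ to 3′ on the transcript with the match in capitals, from GENCODE M21. In GRCm38 they lie in 3′ UTR exons at chr13:114288695-114288717 (Ndufs4, minus strand), chr7:120659302-120659324 (Uqcrc2, plus strand), chr9:79755440-79755462 (Cox7a2, minus strand), chr13:86044825-86044848 (Cox7c, minus strand), chr11:96071350-96071373 (Atp5g1, minus strand) and chr4:24903435-24903458 (Ndufaf4, plus strand).
Ndufs4: ctgtgcacTATTTATagtccatg
Uqcrc2: tcagcaagTATTTATtaaatgct
Cox7a2: gggatcaaTATTTATtgatgtgt
Cox7c: gaaaaaatTGTAAATAaactaatg
Atp5g1: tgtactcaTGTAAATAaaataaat
Ndufaf4: ctagcagaTGTAAATAtggtttct
A match is a description and not a binding site, and its absence says only that these letters are not in the annotated 3′ UTR. Sdhd, Ndufaf1, Ndufaf3 and Ndufaf7 held neither.

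Codon use was also computed by role, without a test. G or C stood at the third position of a median of 62.6% of codons in the subunits, 48.1% in the assembly factors and 60.6% in all transcripts. AAA made up a median of 30.8% of the lysine codons of the subunits and 53.4% of those of the assembly factors, against 37.5% over all transcripts, and UUU 50.0% and 52.7% of the phenylalanine codons, against 44.4%. The factors were not alike: Ndufaf3 and Ndufaf8 had no AAA codon and G or C at the third position of 61.1% and 78.4% of codons, closer to the subunits or beyond them.

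Some members have near-identical copies, so their reads cannot be assigned with certainty. The coding sequence of 24 of 82 members matched a transcript of another annotated gene at 95% identity or more over at least 50% of its length, with up to 8 such genes for a member (Atp5l). All 24 were subunits, Atp5g1, Atp5g2 and Cox6c among them, and none was an assembly factor. In OPCs the slope passed above 0 for 13 of 23 members with a copy and 33 of 56 without one.

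Other genes of the pathway, from fixed lists of assembly factors, cytochromes and regulators, were called in shares near those of all transcripts. In OPCs 43 of 52 (82.7%) fell and 2 rose, where 81.7% and 4.31% of all transcripts did, and in OLs 34 of 57 (59.6%) fell and 0 rose, where 68.4% and 1.50% did (limma). By list, 7 of 8 further complex I assembly genes, 4 of 4 for complex II, 5 of 8 for complex III and cytochromes c, 14 of 18 for complex IV, 3 of 4 for ATP synthase and 10 of 10 regulators fell in OPCs. The regulators, transcription factors and other genes that set the expression of respiratory genes, also fell in OLs in 10 of 10 cases, with a median slope of -0.56 in OPCs and -0.25 in OLs. The smallest p-values in OPCs were those of Sco1 (-0.61), a copper chaperone of complex IV, Esrra (-0.75), a nuclear receptor that drives mitochondrial genes, Cox15 (-0.45), a haem A synthase, Polrmt (-0.56), the mitochondrial RNA polymerase, Tmem70 (-0.71), an ATP synthase assembly factor, and Cox10 (-0.61), a farnesyltransferase for haem A. The pair that rose was Atpif1, the inhibitor of ATP synthase, at 0.19 ± 0.04 (limma adjusted p = 0.000103), and Uqcc2, at 0.12 ± 0.04 (limma adjusted p = 0.0161). In OLs the smallest p-values were those of Gabpb1 (-0.42), Tfam (-0.38), Gabpa (-0.34), Cox10 (-0.33), Atpaf1 (-0.41) and Sco1 (-0.36). Of 51 with a half-life in all 5 replicates, 9 (17.6%) stood at the ceiling in all of them, against 16.1% of all transcripts. Among them were 2 of 7 further complex I assembly genes (28.6%), Acad9 and Timmdc1, named after their values were seen.

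Between the cell types, 3 of these 51 genes (5.88%) had a longer half-life in OLs and 0 a shorter one, where 3.39% and 0.148% of all transcripts did. Surf1, a complex IV assembly factor, measured 1.37, 1.25 and 1.78 h in OPCs and 6.00 h in both OL replicates (2.05 ± 0.18 log2 units, limma adjusted p = 0.0372). Pprc1, a coactivator of respiratory genes, measured 0.743, 0.835 and 0.852 h against 3.78 and 2.91 h (2.03 ± 0.15, limma adjusted p = 0.0274), and Polrmt 1.80, 1.96 and 1.86 h against 3.49 and 3.19 h (0.83 ± 0.06, limma adjusted p = 0.0281). For none of these 3 genes did the half-lives of the cell types overlap, and the share of all transcripts without overlap was not counted. None was called with replicate number as a block (adjusted p of 0.155 to 0.235), after replicates were centred on their median, without the 6 h libraries, without OL replicate 1, or without OPC replicate 1 or 2. Without OPC replicate 3 only Surf1 was called, and without OL replicate 2 or after rescaling to the mean curve only Pprc1. The difference of Polrmt turned to -0.07 with centring. The slope differed between the cell types, less negative in OLs, for 17 of 51 (33.3%) and the opposite for 0, where 32.2% and 0.382% of all transcripts passed. At 0 h, 2 of 51 (3.92%) were higher in OLs and 3 (5.88%) lower, where 13.8% and 15.8% of all transcripts were. Higher were Hccs (1.11 ± 0.25, limma adjusted p = 0.0132), which attaches haem to cytochromes c, and Higd1a (0.88 ± 0.25, limma adjusted p = 0.0342). The 3 that were lower were Pprc1 (-0.96 ± 0.23, limma adjusted p = 0.0174), Cmc2 (-1.0 ± 0.26, limma adjusted p = 0.0231) and Cyc1 (-1.0 ± 0.28, limma adjusted p = 0.0302), the haem subunit of complex III.

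The subunits were set beside the ribosomal proteins, whose genes for the cytosolic ribosome are also abundant and short. Of 80 cytosolic ribosomal protein genes, 79 (98.8%) stood at the ceiling in all 5 replicates. In OPCs the slope of 59 (73.8%) passed above 0, where 4.31% of all transcripts did. In OLs 1 (1.25%) passed above 0, where 1.50% of all transcripts and 13.4% of members did. Past the threshold or not, the slope was above 0 for 79 of 80 in OPCs and 76 of 80 in OLs. At 0 h, 48 of 80 (60.0%) were lower in OLs, with a median difference of -0.80 log2 units, against 6 of 79 members and -0.15. The mitochondrial ribosomal proteins, which serve the same organelle as the members, had fewer at the ceiling. In all 5 replicates 11 of 72 (15.3%) stood there, close to the 16.1% of all transcripts. Of these genes, 55 of 73 (75.3%) fell in OPCs and 40 of 74 (54.1%) in OLs, where 81.7% and 68.4% of all transcripts did. Their median 0 h level was 34.6, 28.5 and 29.5 FPKM in OPCs, against 166, 111 and 132 FPKM for the respiratory subunits. The differences between these sets were not tested, since their genes are not replicates.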

How the data were processed

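The authors clipped adapters, aligned reads to GRCm38 (HISAT2 2.1.0), tabulated FPKM over canonical coding transcripts (StringTie 1.3.5) and scaled the deposited FPKM to 5-EU-labelled LYSa and luciferase spike-ins (the 0 h columns were read as unscaled, since they keep 6 decimals while later ones hold at most 6 significant digits), keeping transcripts of at least 1 FPKM at 0 h. They fitted the deposited half-lives, another unit, by least absolute deviations with a ceiling of 6 h. A refit fell within 0.01 h for 98.2% to 99.9% of values. Of 26 labelled samples, 25 libraries were used, and the OPC control without biotin was not analysed here, and no background was subtracted here.

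Here 0 h levels, log2 half-lives, percentiles of refitted decay rates (ties averaged) and slopes of log2(FPKM + 1) were tested with limma 3.58.1 (R 4.3.3), two-sided, with Benjamini-Hochberg adjustment over all transcripts at 0.05. The slope fits had replicate number as a block and took each chase time point as an observation. How slopes vary between replicates was not modelled, so their p-values do not measure that spread. The fits of 0 h level, half-life, decay rank and slope within each cell type were tested on simulated data with normal noise. The test of the slope difference between cell types was not. Ties at the ceiling and values listed at 0 were not simulated. Replicates are the labels' own, and although OLs were made from a pair of the OPC replicates, no source ties their numbers. Depth is unknown, so no counting error is given. Members, lists and alternatives were chosen with earlier results of these data known. Named members were, per comparison, up to 12 with the smallest p in each direction past the threshold, the Ndufaf and Sdh genes, paralogue sets, and the 5 highest and lowest by level and half-life. From the other pathway lists, up to 6 a direction were named. Transcript models were GENCODE M21 (all 10104 matched), and copies were sought with BLAST 2.17.0.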

Additional observations from a re-analysis of the deposited data

Results flagged for a closer look

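A decline that differed between the cell types, by limma's test of the difference itself, was found for 3 members. That test took the chase time points of all replicates as observations and did not model how slopes varied between replicates. With 1 half-life or decay rank per replicate, 0 members passed. The slope was higher in OLs than in OPCs by 0.36 log2 units per h for Ndufaf7, by 0.33 for Ndufaf1 and by 0.20 for Sdhd. In each, both OL replicates kept a larger share of the 0 h level at 6 h than any OPC replicate. How many of all transcripts did so was not counted. Their median share was 31.5% and 36.6% in OLs and at most 17.7% in OPCs. Ndufaf1 and Ndufaf7 were listed at 0 at 6 h in all OPC replicates, so any OL value above 0 is larger. The half-life of Ndufaf1 in OL replicate 1, 1.70 h, lay within the OPC range of 1.54 to 1.96 h. That in OL replicate 2, 5.41 h, lay above it. Of all 8112 transcripts, 32.2% passed the slope test in the same direction, so a difference of this kind is common in these data. Groups of 2 and 3 replicates were too small to be examined for single outlying samples.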

How the results depend on the processing

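At 0 h, the count of members lower in OLs was 1 with the replicate block and 1 to 6 when one replicate was left out. The OLs came from a pair of the OPC replicates, and no source says which numbers correspond. Same-numbered replicates 1 and 2 deviated with correlations of 0.0589 and 0.0102 (0 h level), -0.00162 and -0.105 (half-life) and -0.0105 and -0.107 (decay rank), so whether the numbers pair the cell types could not be settled. The replicate block left 0 members called for half-life and decay rank. Without it, the slopes called 47 and 5 members in OPCs and 11 and 2 in OLs.

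With libraries set to the 0 h median, 74 members rose and 2 fell in OPCs, and 77 rose and 1 fell in OLs, with 34.0% and 30.4% of all transcripts rising. The OPC falls of Ndufaf4, Ndufaf3 and Sdhd were lost, with slopes of -0.15, 0.02 and 0.26. Without the 6 h libraries, 13 and 2 rose. Leaving out one replicate gave 16 to 45 and 2 to 8. The complex I subunit minus assembly factor difference was 3.53 h in OPCs without the 6 h libraries and 2.79 h in OLs after rescaling to the mean curve.

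Between the cell types, the slope test called 3 members where half-lives called 0, and it gave Ndufaf4 0.11 and Atp5g1 -0.01, against the sign of their half-life difference. Centring replicates on their median turned the half-life difference of Sdhd to -0.49, Ndufaf1 to -0.16, Atp5g1 to -0.76 and Ndufaf8 to -0.77, and rescaling to the mean curve turned that of Ndufaf8 to -0.19. Leaving out one replicate gave -0.09 to 1.58 for Ndufaf1 and -0.42 to 0.35 for Ndufaf4. In decay rank, percentile points that passed no test, Ndufaf1 was at -5.9 and Ndufaf8 at 19.1 without 6 h, and Ndufaf8 at 2.4 with the replicate block. Leaving out one replicate gave -15.4 to 26.5 for Ndufaf1, -2.9 to 7.7 for Atp5g1 and -20.6 to 13.8 for Ndufaf8. The cause of these shifts was not tested. Depth is unknown, and values listed at 0 at 6 h limit the low assembly factors most.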
